A study of Drosophila melanogaster with 3 samples.

Results

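Of the 8131 summits in the optimal peak list of the Hmr ChIP-seq, 940 (11.6%, exact Clopper-Pearson 95% interval 10.9 to 12.3%) lay deep inside introns. Each of these summits fell within an annotated gene, in no annotated exon, and more than 5000 bp from the nearest annotated transcription start of any gene, by the Release 6 gene models of the fly. The choice used position only and no measured value. An annotated intron around the summit was found for all 940, and 925 of them had a protein-coding host gene.

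The data came from 1 group of 3 biological replicates of whole Drosophila melanogaster embryos, aged 0 to 24 h and of both sexes pooled. All embryos carried an Hmr transgene whose product ended in a C-terminal tag, green fluorescent protein (GFP). The chromatin was sonicated to 200 to 800 bp and precipitated with an antibody against the tag. Every value therefore concerns the tagged protein, summed over all embryonic cell types and ages. The labels do not name the promoter of the transgene. No untagged embryos or second condition were analysed here, and the sequencing depth behind the deposited peak lists is unknown. Peak signal was taken from the authors' lists and was compared only within a list. Summits are not independent replicates, and the interval above covers counting error only.

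Hmr (Hybrid male rescue) is a fly chromatin protein with MADF DNA-binding domains, known from the lethality of hybrid males between Drosophila melanogaster and closely related species. It acts in a complex with Lhr and the heterochromatin protein HP1, and it is known at pericentromeric heterochromatin and at many sites along the chromosome arms. Introns far from any start are the part of a fly gene where distal enhancers and insulator sites commonly lie.

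The strongest deep intronic sites that are shown as sequence belonged to simj, CG32486, tara, Gug and Raf. They are given as windows that reach 100 bp to each side of the summit, in dm6 on the plus strand, to show how base composition varies at strong sites. Capitals mark matches, on either strand, to the TATA box TATAAA, the Forkhead core TGTTTAC or the E-box CATATG. The windows of simj and tara held none of these.
simj chr3L:10682908-10683108: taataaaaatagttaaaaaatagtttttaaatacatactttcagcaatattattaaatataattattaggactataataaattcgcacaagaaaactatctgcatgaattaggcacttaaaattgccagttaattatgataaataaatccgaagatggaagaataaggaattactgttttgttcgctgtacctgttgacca
CG32486 chr3L:3060686-3060886: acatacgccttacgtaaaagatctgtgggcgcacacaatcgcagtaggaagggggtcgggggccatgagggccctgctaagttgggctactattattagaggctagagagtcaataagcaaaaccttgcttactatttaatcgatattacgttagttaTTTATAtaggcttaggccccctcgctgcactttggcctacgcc
simj chr3L:10678672-10678872: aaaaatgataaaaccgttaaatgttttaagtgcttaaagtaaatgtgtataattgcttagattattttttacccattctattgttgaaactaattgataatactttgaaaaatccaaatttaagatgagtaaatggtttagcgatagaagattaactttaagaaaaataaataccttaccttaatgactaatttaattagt
tara chr3R:16236907-16237107: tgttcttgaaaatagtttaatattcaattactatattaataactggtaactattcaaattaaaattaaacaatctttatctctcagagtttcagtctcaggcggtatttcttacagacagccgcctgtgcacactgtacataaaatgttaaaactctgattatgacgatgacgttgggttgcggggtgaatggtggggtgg
Gug chr3L:8458215-8458415: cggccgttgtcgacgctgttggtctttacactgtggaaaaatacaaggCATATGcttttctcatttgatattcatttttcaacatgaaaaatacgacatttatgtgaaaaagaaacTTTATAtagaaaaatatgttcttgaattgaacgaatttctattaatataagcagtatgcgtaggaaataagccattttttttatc
Raf chrX:2300579-2300779: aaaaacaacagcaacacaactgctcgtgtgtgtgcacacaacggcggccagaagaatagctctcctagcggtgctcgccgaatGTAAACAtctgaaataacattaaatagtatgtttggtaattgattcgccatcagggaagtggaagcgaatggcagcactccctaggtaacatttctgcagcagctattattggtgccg

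The simj windows had GC contents of 25.4% and 22.4%, while CG32486 had 47.8% and Raf 46.3%. Strong deep intronic sites thus spanned AT-rich sequence and sequence with nearly equal shares of AT and GC.

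Sites that carried a recurrent sequence are shown as short stretches, written in the direction of the sequence, with capitals at the match. The sequence CACTGAGA was taken from 7-letter sequences ranked on other summits, and the sites shown are the 4 strongest deep intronic ones that could be printed, each with a match within 100 bp of the summit.
CG43759 chrX:19018177-19018216 (plus strand): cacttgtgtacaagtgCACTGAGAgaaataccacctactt
Snoo chr2L:7916422-7916461 (plus strand): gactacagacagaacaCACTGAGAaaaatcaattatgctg
DIP-gamma chr3R:28959389-28959428 (minus strand): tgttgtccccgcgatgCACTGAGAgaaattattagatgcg
CG10283 chr2L:18477677-18477716 (minus strand): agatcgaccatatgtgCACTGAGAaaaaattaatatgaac

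A second sequence, GCACAGTGG, came from the same ranking, and 4 of its strongest deep intronic sites were these.
CG43902 chrX:10184914-10184954 (minus strand): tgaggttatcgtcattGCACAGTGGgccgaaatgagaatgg
dnc chrX:3205991-3206031 (plus strand): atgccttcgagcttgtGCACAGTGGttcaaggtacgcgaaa
mgl chrX:9416168-9416208 (plus strand): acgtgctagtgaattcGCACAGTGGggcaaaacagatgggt
mgl chrX:9431654-9431694 (minus strand): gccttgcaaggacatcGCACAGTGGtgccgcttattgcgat

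Among all 940 summits, the signal had a median of 232, with quartiles of 185 and 343 and a maximum of 2558. The other 7191 optimal summits had a median of 284. Only 2 deep intronic summits were among the 100 strongest optimal summits and 44 among the 1000 strongest.

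The 15 strongest deep intronic summits lay in 13 genes or groups of overlapping genes, several of them known regulators of transcription and signalling. The strongest, with a signal of 2558, lay at chr2R:18337189 in the first intron of sbb (FBgn0285917), which encodes the corepressor Scribbler (Brakeless). This summit was 20107 bp from the nearest start and ranked 79, 40 and 45 in the lists of replicates 1, 2 and 3. The genes simj and tara each had 2 of the 15. The gene simj encodes the p66 subunit of the nucleosome remodelling complex NuRD, and its first intron held summits at chr3L:10683008 (signal 2201) and chr3L:10678772 (signal 1734). They ranked 44, 70 and 131 and, for the second, 108, 152 and 186 in replicates 1, 2 and 3. Mi-2, the ATPase of the same complex, shared with Su(Tpl), an elongation factor gene, a summit of signal 1070 at chr3L:19903254.

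The nuclear receptor gene Hr3, a member of the ecdysone cascade, held a summit of signal 1762 at chr2R:10220090, within CG12912 and CG46321 as well. The summit in CG32486 at chr3L:3060786 had a signal of 1922 and no other optimal summit within 10168 bp. Summits in tara, a gene of the trithorax group, reached 1671 at chr3R:16237007 and 1031 at chr3R:16236117. Gug, which encodes the corepressor Atrophin, followed with 1627 at chr3L:8458315. Raf, the kinase below Ras, had 1319 at chrX:2300679, and cic, an HMG-box repressor regulated by the same pathway, had 1059 at chr3R:20261600. The remaining sites of the 15 were in MESR3 (1157), spen (1107), which encodes an RNA-binding corepressor, mamo (1099), a zinc finger transcription factor gene, and prage (1075). The mamo summit lay 42287 bp from any start and 51986 bp from the next optimal summit. All 15 were found among the 8131 strongest entries of every replicate list.

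**Figure D1:**
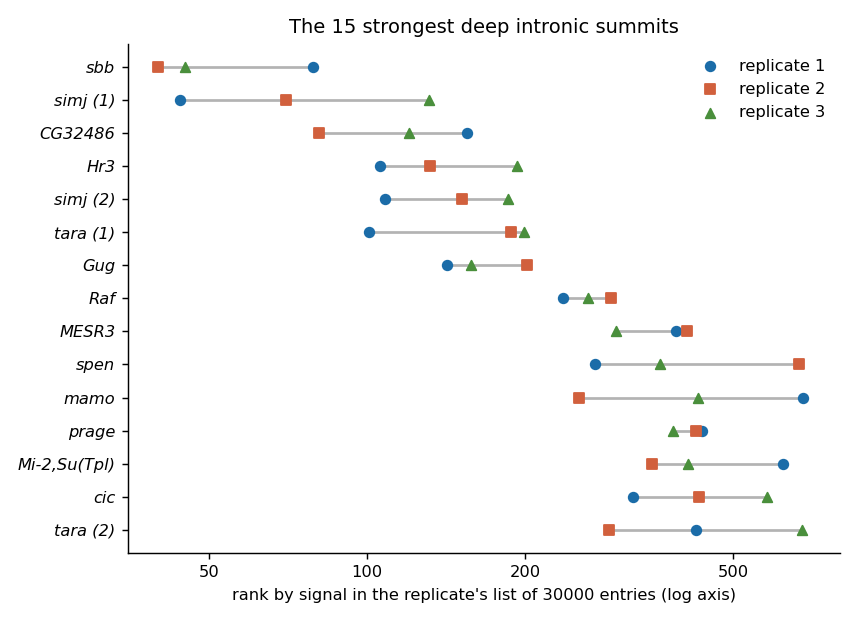
Rank by signal of the 15 strongest deep intronic summits in the full list of each replicate, on a log axis, where a rank of 1 would be the strongest entry. Points are replicates, grey lines span them, and gene names mark the host; every rank lay between 40 and 679.

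Replicates recovered most deep intronic sites among their strongest entries. Matching required a summit within 200 bp among the 8131 strongest entries of a replicate. By this rule 501 of 940 deep intronic summits (53.3%) were matched in all 3 replicates, where the background over all optimal summits was 59.7%. A further 276 were matched in 2 replicates, 157 in 1 and 6 in none. The matched share was 81.5% in replicate 1, 78.9% in replicate 2 and 74.9% in replicate 3, beside backgrounds of 80.5%, 81.2% and 84.4%.

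Against the other optimal summits, which had 80.4%, 81.5% and 85.6%, the mean difference was -4.06 ± 6.04 percentage points (SD, n = 3). It was positive in replicate 1 and negative in the others, and an exact two-sided sign-flip permutation test over the 3 replicates gave p = 0.5. That test cannot go below 0.25 with 3 replicates. Without replicate 3 the mean difference was -0.74. In the full lists of 30000 entries, 97.9%, 98.5% and 99.5% of deep intronic summits had a counterpart, against 95.3%, 96.2% and 99.0% of the others. The difference thus had the other sign there. The optimal list was made from these replicates, so matching describes how evenly they contributed.

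Deep intronic entries had lower median signal than the others within each replicate's own list of 8131 strongest entries. Their median signal was 85.0, 77.7 and 92.4 in replicates 1, 2 and 3, against 94.9, 95.6 and 111 for the other entries of the same lists. The log2 ratio was -0.24 ± 0.07 (SD, n = 3), negative in 3 of 3 replicates (exact sign-flip p = 0.25, the smallest possible). Introns at 1 to 5 kb from a start, with medians of 89.5, 86.1 and 100, were also above the deep intronic entries in each replicate (log2 ratio -0.11 ± 0.04, exact sign-flip p = 0.25). Intergenic entries beyond 5 kb had medians of 83.1, 71.8 and 93.1, and here the sign of the difference varied between replicates (0.04 ± 0.06, exact sign-flip p = 0.5).

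The share of deep intronic entries was lowest at the top of each list. Cut in 10 bins by signal, the weakest bin of the 8131 entries had 12.5%, 15.5% and 13.9% in replicates 1, 2 and 3, against 5.04%, 3.32% and 4.05% in the strongest bin. The difference of 9.85 ± 2.34 percentage points (SD, n = 3) was positive in all 3 replicates, again at the smallest possible exact sign-flip p of 0.25. Over the full lists, deep intronic entries made up 19.0%, 17.6% and 17.3%. Deep intronic sequence covered 28.3 Mb, or 21.1% of the 134 Mb of the 6 chromosomes, so all 10 bins of the 8131 strongest entries lay below that share in each replicate. In the full lists the weaker bins exceeded it, with up to 24.9%, 22.5% and 23.2% in replicates 1, 2 and 3.

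**Figure D2:**
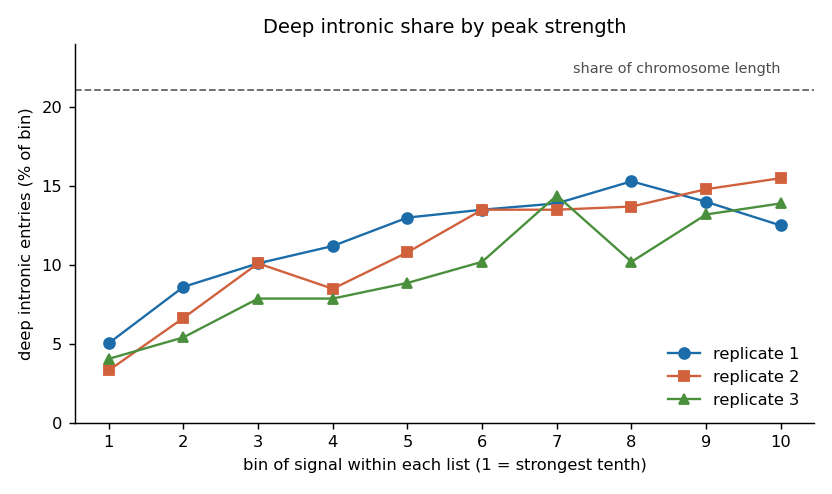
Share of deep intronic entries (percent) in 10 bins of equal size by signal within the 8131 strongest entries of each replicate, from the strongest bin at the left. Lines are replicates and the dashed line is the share of chromosome length, 21.1%; the strongest bin held between 3.32% and 5.04%.

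Per length of sequence, deep introns carried fewer summits than the rest of the genome and more than intergenic sequence that also lay beyond 5 kb of a start. The replicate lists had 33.7, 31.7 and 27.6 deep intronic summits per Mb, against 68.0, 68.5 and 69.6 per Mb in all other sequence (log2 ratio -1.15 ± 0.17, SD, n = 3, exact sign-flip p = 0.25). Intergenic sequence beyond 5 kb of any start had 16.8, 14.2 and 11.3 per Mb, so deep introns were denser in every replicate (log2 ratio 1.15 ± 0.14, exact sign-flip p = 0.25). These 2 kinds of sequence were not matched for distance, with 5.01 of 20.1 Mb intergenic and 4.54 of 28.3 Mb deep intronic beyond 40 kb. In the optimal list, deep introns at 5 to 7.5 kb had 49.3 per Mb, against 25.9 in intergenic sequence. At 10 to 15 kb the values were 39.4 and 21.9. Introns at 1 to 5 kb had 69.5, 75.4 and 66.2 per Mb.

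Within deep introns the density was lower the farther the sequence lay from a start. It was 47.9 ± 4.34 per Mb at 5 to 7.5 kb, 35.9 ± 3.95 at 10 to 15 kb, 21.4 ± 3.58 at 20 to 40 kb and 2.57 ± 0.555 beyond 40 kb (SD, n = 3 replicate lists). The 4.54 Mb beyond 40 kb held only 14 optimal summits. Some genes with very long deep introns had no summit, such as Pzl (690 kb of deep intronic sequence) and lovit (417 kb). Their part in the low density of the far bins was not separated, and how well reads could be placed there was not tested. Repeat-masked bases made up 37.3% of that sequence and 21.9% of the nearest bin. In unmasked sequence alone the optimal list gave 46.9 per Mb in the nearest bin and 3.87 beyond 40 kb. Median signal moved little over these bins, between 215 and 242. The lowest signal of a deep intronic summit in the optimal list was 155, so sites too weak for the list do not enter these medians.

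**Figure D3:**
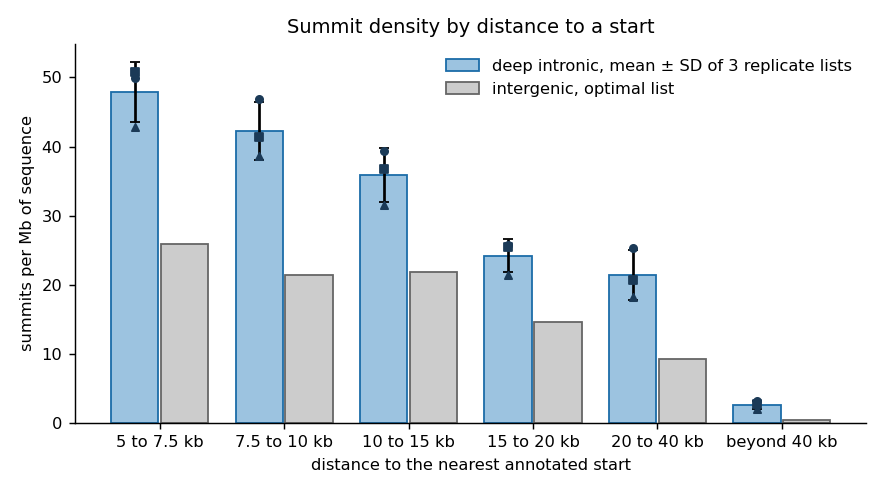
Summits per Mb of sequence against distance to the nearest annotated start. Blue bars are deep intronic summits (mean ± SD of 3 replicate lists; circles, squares and triangles are replicates 1, 2 and 3), grey bars are intergenic summits of the optimal list; the deep intronic bar is the higher in every bin.

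The median deep intronic summit was 8986 bp from a start, with quartiles of 6733 and 13594 bp, and 408 of the 940 were beyond 10000 bp. Nearest to the limit on the inside were summits in SLO2, a potassium channel gene (5009 bp, signal 305), and bun, a gene of the TSC22 family (5017 bp, signal 544). Just outside it were summits in Eip75B (4997 bp, signal 221) and in Sesn and CG46429 (4992 bp, signal 364). The farthest were in Myo81F (254789 bp, signal 218, matched in 3 replicates) and luna (53962 bp, signal 161, matched in 1). The median host intron was 17868 bp long. For 542 summits (57.7%) the nearest start belonged to the host gene, and 372 (39.6%) lay in the first intron of the transcript with the shortest intron around them. Among 4476 deep intronic entries that the optimal list did not include, these shares were 53.4% and 34.5%.

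Chromosome 4 had no deep intronic summit in the optimal list, in 0.259 Mb of such sequence. It held only 18 optimal summits of any class, and the list of replicate 2 had 1 deep intronic summit there (3.86 per Mb). Whether chromosome 4 differs from the other chromosomes was not tested, and these counts are too small to tell. The density was 43.7 per Mb on 2L and 37.8 on X, and between 28.2 and 32.4 on 2R, 3L and 3R. On 2L it was 46.2, 41.8 and 36.5 per Mb in replicates 1, 2 and 3, against 29.3, 27.3 and 24.4 on 3R. Chromosome 4 aside, these were the arms of highest and lowest density in the optimal list. Their replicate values did not overlap, though the replicate lists share most of their sites. As a share of all optimal summits of the arm, deep intronic summits were alike, with 11.9% on 2L and 12.1% on 3R.

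Deep intronic summits were sparser along the chromosome than other summits. The nearest optimal summit was a median of 4165 bp away, against 2000 bp for the other summits. Part of this gap follows from the choice of sites. A site more than 5000 bp from any start cannot lie close to the 3131 promoter and 1584 promoter-flanking summits, which are within 1000 bp of a start. How much of the gap remains beyond this was not tested. The median was 3887 bp for intergenic summits beyond 1 kb and 1716 bp for introns at 1 to 5 kb. Linked at 5 kb, the 940 formed 668 groups, of which 502 were single summits, 107 pairs and 59 larger. Peaks in the list can hold several summits, so near neighbours can share 1 replicate entry. Another summit lay within 500 bp of 100 deep intronic summits (10.6%), against 17.2% of the other optimal summits.

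Runs of 5 or more deep intronic summits occurred at 11 places, with no count of runs among other summits beside it. The longest was in sbb, with 13 summits over 19390 bp at chr2R:18325166-18344555, whose signals were between 158 and 2558. The next was in px, a gene of wing vein patterning, with 8 summits over 14232 bp, and then came the homeobox gene NK7.1, with 6 over 6575 bp. Runs of 5 were in B4, crp, CG45088 with CG6191, eIF5B, ftz-f1, rdx, tara and Raf.

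Of the 1422 genes with at least 1000 bp of deep intronic sequence, 482 (33.9%) held a deep intronic summit, and 4 more hosts had less of it. A single summit was found in 257 of the 482, while 43 had 5 or more. Those 43 genes took in 255 of the 940 summits. Hosts had a median of 19820 bp of deep intronic sequence, against 6498 bp for the 940 genes without a summit. The share of hosts was 12.5% among genes with 1000 to 5000 bp and 66.9% among those with 50000 bp or more.

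The genes with the most summits were sbb and kirre, with 14 each, and they differed in kind. In sbb the 14 summits lay in 35.6 kb of deep intronic sequence, or 3.94 per 10 kb, and the gene's strongest start summit had a signal of 1781. In kirre, which encodes an adhesion protein of muscle founder cells, they were spread over 226 kb, or 0.619 per 10 kb, none exceeded 317, and no start had a summit. The highest concentration among these 10 genes was in tara, with 9 summits in 16.1 kb (5.58 per 10 kb). Snoo, the fly homologue of the Ski and Sno regulators of TGF-β signalling, had 10 in 75.3 kb. In px there were 9, the strongest of signal 392, beside a start summit of 3386. The homeobox gene hth, a partner of Hox proteins, had 8 and no start summit. Glut4EF and the overlapping CG46467 shared the same 8 summits. Both rdx, a ubiquitin ligase adaptor of the Hedgehog pathway, and eIF5B, a translation initiation factor gene, had 7.

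Some genes with long introns had none. The longest were Pzl (690 kb of deep intronic sequence), lovit (417 kb), DIP-lambda (372 kb), bru3 (215 kb) and Snap25 (208 kb). Of these, bru3 held 50 entries that the optimal list did not include, and each of the other 4 held at most 2. Those 4 lie at chr3R:2554162-3263582 (Pzl), chr3L:25236940-25670980 (lovit), chr2R:326768-705848 (DIP-lambda) and chr3L:24074180-24299205 (Snap25). How well reads could be placed there was not tested, so a lack of summits need not be a lack of Hmr.

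Genes with a deep intronic summit more often had a summit at a start too. A summit lay within 250 bp of an own start in 238 of the 482 hosts (49.4%), against 284 of the 940 genes without a deep intronic summit (30.2%); over both together the background was 36.7%. The shares were 55.4% against 36.1% among genes with 1000 to 5000 bp of deep intronic sequence, and 33.3% against 15% among those with 50000 bp or more, and hosts had the higher share in all 5 length classes. These are counts in a single list, with no test. In 130 of the 238 hosts the strongest deep intronic summit exceeded the strongest start summit.

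Genes were also grouped in 12 lists by function, to describe which kinds of gene hosted the summits. Over all genes there were 33.2 summits per Mb of deep intronic sequence, and 33.9% of genes with such sequence were hosts. Longer genes were more often hosts, and the lists differed in length. The median deep intronic sequence per gene was 9.35 kb over all genes. It was 3.27 kb in the chromatin and insulator list, 13.0 kb for signalling ligands and receptors, 30.8 kb for ecdysone response genes and 38.6 kb for RNA-binding regulators. Host counts were not adjusted for this. The list of signalling ligands and receptors had 46 summits, or 86.3 per Mb, and 22 of its 35 genes were hosts. Its strongest were in S (Star, an EGF pathway gene, 977), Dad (an inhibitory Smad, 944) and N (Notch, 638). Ecdysone response genes had 31 summits, or 76.8 per Mb, and 10 of 15 were hosts, with Hr3 (1762), Hr4 (768) and Eip75B (768) in front; all of these encode nuclear receptors. Neural and developmental transcription factors had 68 summits (56.1 per Mb, 22 of 59 genes), led by sbb, mamo and sima (727), the fly hypoxia-inducible factor. The sbb run alone made up 13 of the 68.

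Genes of cAMP, calcium and kinase signalling had 23 summits (57.5 per Mb, 12 of 25 genes), with Pka-C1 (524), a protein kinase A catalytic subunit, dnc (498), the cAMP phosphodiesterase Dunce, and Ac76E (379), an adenylyl cyclase. The chromatin and insulator list had 5 summits in its 0.0604 Mb of deep intronic sequence, or 82.8 per Mb, in 4 of 11 genes, among them Mi-2 (1070), trx (640) and Psc (379). Near the value for all genes were cytoskeleton and small GTPase regulators (41.3 per Mb, 9 of 24 genes; RhoGAP19D 439, spri 374, spir 262), matrix, integrin and polarity genes (39.4 per Mb, 11 of 23; scrib 549, mew 385, Mp 368) and muscle genes (39.1 per Mb, 5 of 14; Zasp52 396, Mef2 307, mspo 188).

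Axon guidance and neural adhesion genes had the most summits of any list, 83 in 36 of 80 genes, at 29.7 per Mb. Their share of deep intronic summits was 8.83%, against 13.2% of the 4476 deep intronic entries that the optimal list did not include. The strongest were in the adhesion gene ed (554), the Netrin receptor gene fra (552) and Nrg (548). Segmentation and Hox genes had 7 summits (27.1 per Mb, 3 of 16 genes), in Antp (648), cad (549) and Ubx (261). RNA-binding regulators had 21 (19.8 per Mb, 11 of 18; how 690, brat 517, pum 381). Ion channel and neurotransmitter receptor genes had the lowest density, 16.3 per Mb, with 17 summits in 12 of 45 genes; nAChRalpha6 (368), Octbeta3R (340) and Octbeta1R (327) led it. The lists overlap in part and were described without a test.

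**Figure D4:**
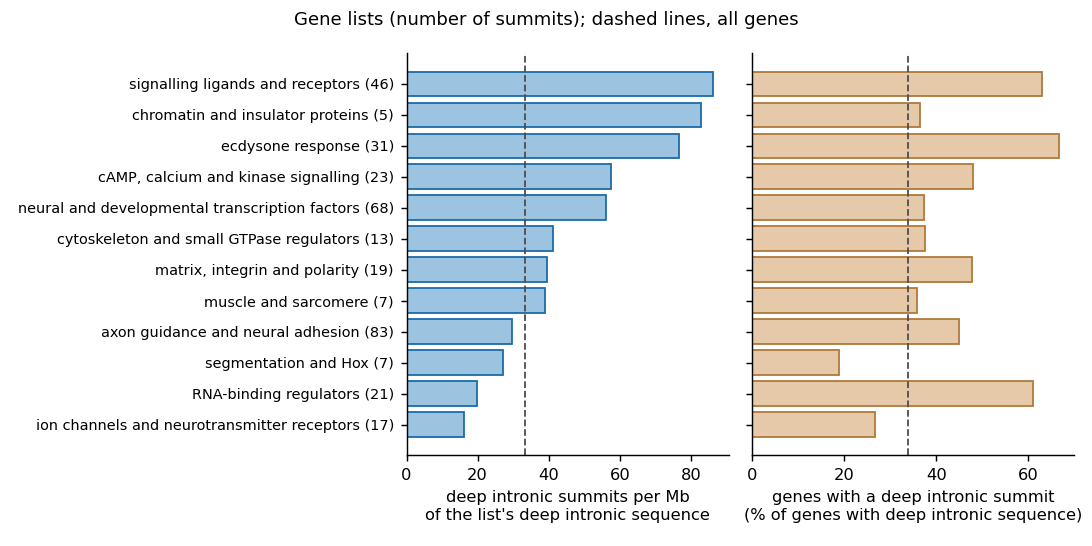
Deep intronic summits per Mb of each list's deep intronic sequence (left) and the percentage of its genes with such sequence that hold a summit (right), with the number of summits in parentheses. Dashed lines are the values over all genes, 33.2 per Mb and 33.9%, and bars run between 16.3 and 86.3 per Mb. The percentages are not adjusted for the length of deep intronic sequence per gene.

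The sequence at deep intronic summits had a lower GC content than its flanks. In windows of this width at the replicates' own summits, GC content averaged 36.6 ± 0.231%, against 41.5 ± 0.416% in flanking windows centred 500 bp to each side (SD, n = 3). The 4476 entries that the optimal list did not include had 41.2% at their summits and 41.5% in the flanks. A low GC content was common to the optimal list, with a median of 35.3% at deep intronic summits, against 35.8% at 1 to 5 kb in introns, 34.8% at intergenic summits beyond 1 kb and 36.8% over all optimal summits. Of 29 known consensus sequences searched on both strands, 8 were more frequent at the summits than in the flanks in all 3 replicates, 10 were less frequent in all 3, and 11 were neither. The replicate lists share most of their sites, so this agreement is not that of separate sets of sites. Each paired difference over 3 replicates is limited to an exact sign-flip p of 0.25 or more.

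TATAAA was found at 35.3%, 34.9% and 34.6% of deep intronic summits in replicates 1, 2 and 3, against 22.4%, 21.2% and 21.3% of flanks. This sequence holds no G or C. Its excess was not adjusted for the lower GC content at summits, and whether it goes beyond base composition was not tested. In the optimal list TATAAA was in 36.3% of deep intronic windows, against 32.7% at 1 to 5 kb in introns, 39.2% of intergenic windows beyond 1 kb and 32.5% of all optimal windows. The Forkhead core TGTTTAC was at 8.81%, 10.1% and 9.74% of summits, against 4.46%, 4.68% and 5.0% of flanks. In the optimal list it was in 9.68% of deep intronic windows, against 9.03% at 1 to 5 kb in introns, 8.46% of promoter-flanking windows, 4.68% of intergenic windows beyond 1 kb and 7.81% of all optimal windows. The GATA, homeodomain, heat shock factor, CATATG, CTCF core and M1BP sequences were also higher in 3 of 3 replicates, though M1BP matched only 2 of the 940 windows and the CTCF core 19. The 10 sequences that were less frequent in all 3 replicates included the Zelda site and the CA repeat. The CA repeat was at 3.46%, 2.90% and 3.85% of summits, against 5.67%, 5.74% and 5.64% of flanks. None of these differences was adjusted for GC content. Like TATAAA, the homeodomain sequence holds no G or C. The Forkhead, GATA, heat shock factor and CATATG sequences hold 2 such letters, M1BP 5 and the CTCF core 6. The 10 less frequent sequences hold 3 to 5, except for Caudal with 1. Whether any difference goes beyond base composition was not tested.

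The DRE and the BEAF-32 core, both common at promoter summits, were near their flank level in deep introns. The DRE (TATCGATA) was in 0.213% of deep intronic windows and 0.213% of their flanks, against 7.92% of promoter windows. It was also rare at 1 to 5 kb in introns (0.138%) and in intergenic windows beyond 1 kb (1.05%). The BEAF-32 core CGATA, which the DRE contains, was in 18.6% of deep intronic windows and 18.2% of flanks, against 40.7% of promoter windows. At 1 to 5 kb in introns it was in 21.6%, and in intergenic windows beyond 1 kb in 19.2%.

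To look for other sequences, all 7-letter sequences were ranked by their excess over flanks at the 2306 other summits that lay in introns at 1 to 5 kb or in intergenic sequence beyond 1 kb. All of the top 15 were also more frequent at deep intronic summits than in their flanks, and many overlapped each other in their letters. The first of them was CAGTGTA, in 8.30% of the 940 deep intronic windows and 1.33% of their flanks. CACTGAGA joins the sequences ranked 2 and 7, and GCACAGTGG extends those ranked 11 and 12. CACTGAGA was in 47 deep intronic windows (5.0%), against 0.479% of flanks, 7.13% of intergenic windows beyond 1 kb and 1.02% of promoter windows. By replicate it was in 5.35%, 5.13% and 5.13% of summits, against 0.525%, 0.613% and 0.705% of flanks. GCACAGTGG was in 27 windows (2.87%), against 0.426% of flanks, and no window held both. Over all 8131 optimal windows CACTGAGA was in 2.95% and GCACAGTGG in 2.21%. Both were picked after the data were seen.

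Some bases next to CACTGAGA were alike between sites. Read in its direction, with its first C as position 1, position 10 was A in 97.9% of the 47 sites and position 11 was A in 91.5%, while the base just before it was a purine in 95.7%. The stretches at CG43759, Snoo, DIP-gamma and CG10283 show this A-rich end. In the reference, 29 of the 47 sites lay in repeat-masked sequence, and none of the 27 GCACAGTGG sites did. These counts concern the bases of the match. By the summit base, which is another measure, 232 of all 940 deep intronic summits (24.7%) were masked. The masked share of all such sites in deep introns was not counted. Of the 27, 12 were on X, which held 203 of the 940 summits.

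These sequences lay beside the summit and on one side of it. Within 400 bp the commonest distance was 80 to 100 bp for both, and only 3 CACTGAGA and 1 GCACAGTGG matches were within 20 bp of the summit. TATAAA matches were densest within 20 bp, with 120, and Forkhead matches at 20 to 40 bp, with 32. Of 79 CACTGAGA matches that lay wholly within 200 bp of a deep intronic summit, the summit lay 3′ of the sequence for 72 and 5′ for 7. For GCACAGTGG the counts were 52 and 5 of 57. In replicates 1, 2 and 3 the 3′ side took 84.0%, 89.6% and 91.7% of CACTGAGA matches and 83.6%, 88.0% and 87.5% of GCACAGTGG matches. Forkhead matches, by contrast, had 43.7% on the 3′ side.

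Most occurrences of either sequence were not at a summit. Deep intronic sequence held 965 CACTGAGA sites, and 80 (8.29%) were centred within 200 bp of a deep intronic summit, 1 of them reaching past that distance. The same was true of 57 of 494 GCACAGTGG sites (11.5%), 2.27% of Forkhead matches and 1.28% of all deep intronic bases. The windows with CACTGAGA had a median signal of 250 and those with neither sequence 231, and only 3 of the 100 strongest deep intronic summits held either.

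**Figure D5:**
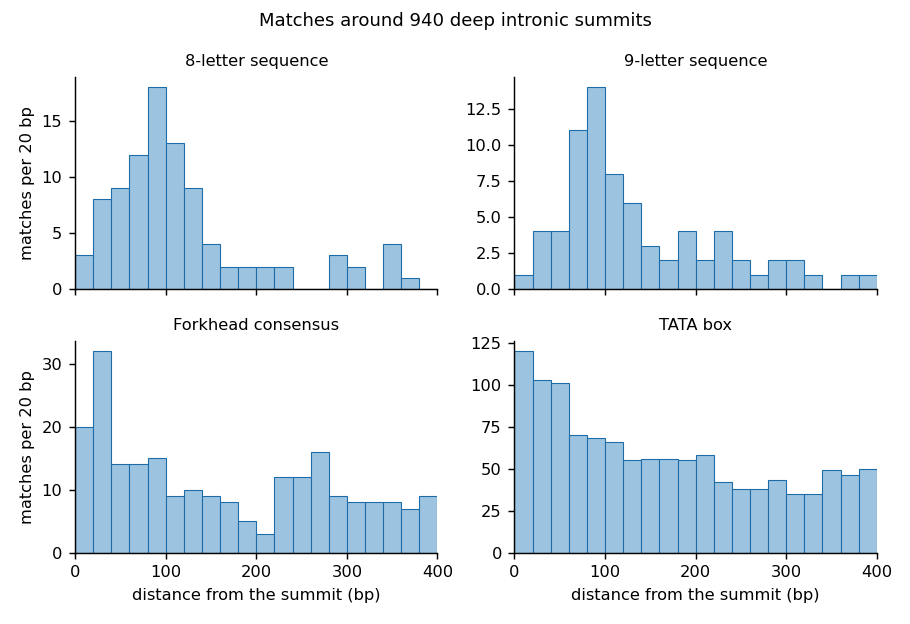
Number of matches per 20 bp of distance from the summit, over 940 deep intronic summits, for CACTGAGA (the 8-letter sequence), GCACAGTGG (the 9-letter sequence), the Forkhead core and the TATA box. Bars of the first 2 peak at 80 to 100 bp with 18 and 14 matches, and TATA box matches peak at the summit with 120.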

How the data were processed

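The deposited files were narrowPeak lists made by the authors in dm6. According to text deposited alongside them, each replicate and the pool had a relaxed list of 30000 entries called against a control, from which an optimal list of 8131 peaks was kept by the irreproducible discovery rate. No source used here names the caller, aligner or threshold. The deposited signal value of each peak was used within a list only, since its scale moves with depth. The dm3 lists were not used here.

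Summits were classed with Ensembl release 115 gene models (18164 genes, transposable elements left out) and NCBI's soft-masked Release 6 sequence. Background entries were the 20064 pooled entries with no optimal summit within 500 bp. The members and the gene and sequence lists were chosen with earlier results of these data known. Of 705 list symbols, 10 were found by synonym and 4 were not found. Named genes hosted the 15 strongest summits, the most summits, the strongest of each list, or the summits nearest to and farthest from the limit. Genes named for runs, long introns without a summit or a recurrent sequence were chosen after their values were seen. Values were paired within replicates and tested by exact sign flips. Scripts (Python 3.11.15, pandas 2.3.3) were tested on simulated data. Alternatives covered distance limits, match windows, repeats, signal and left-out replicates.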

Additional observations from a re-analysis of the deposited data

How the results depend on the processing

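The share of deep intronic summits, 11.6%, was 21.4% with a limit of 2000 bp, 5.02% with 10000 bp, 12.8% with protein-coding genes only, 8.49% among peaks of above-median signal, 10.3% among those matched in all 3 replicates and 10.2% with transposable elements counted as genes, an alternative chosen after seeing the data. With each replicate left out in turn, and only summits matched in both remaining replicates kept, it was between 10.3% and 11.2%. The matching difference of -4.06 percentage points was 1.76 in the full lists, and between -6.63 and -0.74 with a replicate left out, the smallest without replicate 3; the cause was not tested. The host count of 482, which required no matching, became 243 with above-median signal, where fewer summits remain. It was between 354 and 371 when only summits matched in both remaining replicates were kept, a filter that also leaves fewer summits. The median gap of 4165 bp became 6924 bp with above-median signal and 5225 bp with the 10000 bp limit. The signal ratio, strength bins and density kept their sign under every alternative run, but the bin difference of 9.85 points became 5.09 with the 10000 bp limit and 15.43 over all entries. The excess over flanks kept its sign for TATAAA, Forkhead, CACTGAGA and GCACAGTGG; in a window reaching 50 bp to each side it was 1.59 instead of 4.59 points for CACTGAGA and 0.88 instead of 2.63 for GCACAGTGG. The log2 density ratio of -1.15 was -0.92 without sequence beyond 40000 bp, chosen after seeing the data. With a replicate left out, the signal ratio was between -0.28 and -0.21, the bin difference between 8.68 and 11.01, the density ratio between -1.22 and -1.06, and the count of 8 sequences between 8 and 11. The exact sign-flip test cannot go below 0.25 with 3 replicates, and the unknown depth leaves no floor for sites that were not found.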
